A study of Mus musculus with 2 samples.

Results

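The transcripts described here are the non-coding RNAs of Gas5 and of 9 Snhg genes, whose introns carry small nucleolar RNAs (snoRNAs). They were taken by symbol (Gas5, Snhg1, Snhg3, Snhg4, Snhg5, Snhg6, Snhg7, Snhg8, Snhg11 and Snhg12) from the probe sets that the array's annotation pairs with exactly 1 gene symbol, with the brightest probe set standing for its gene. Of these 10 genes 8 had such a probe set, among 22180 genes in all. Gas5 and Snhg8 appear only on probe sets that also name a further RNA, so no value is given for either. The RNA came from M210B4, an established mouse bone marrow stromal line. Per treatment, 200000 cells spent 24 h in medium with 2% serum, either with a CD84-activating antibody (the anti-CD84 group) or with IgG1 as isotype control. CD84 is a SLAM family receptor on the cell surface. Each group is 1 Affymetrix Mouse Gene 2.0 ST array, so every difference below lies between 2 arrays, and no standard error or p-value exists.

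A snoRNA host gene makes a spliced RNA and, from its introns, snoRNAs that are trimmed out of the excised lariats. C/D snoRNAs guide ribose methylation and H/ACA snoRNAs guide pseudouridylation of ribosomal and other RNAs, and a few members of each class act in the cutting of the ribosomal precursor instead. The spliced RNAs of these hosts code for little or no protein. Many begin with the pyrimidine-rich 5′ end (a terminal oligopyrimidine or TOP start) that ribosomal protein mRNAs also carry, are bound by ribosomes and are then destroyed by nonsense-mediated decay. Gas5 was named for its accumulation in growth-arrested fibroblasts, and the stable snoRNAs of a host can differ in amount from its short-lived spliced RNA.

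The start sites are shown because the TOP start is a feature that these hosts share with ribosomal protein genes and that the choice of members did not use. RefSeq's promoter table (GRCm38.p6) held 8 of the 10 members, Snhg4 and Snhg6 not among them, in 9 windows because Gas5 has an alternative start. The 5 printed here are those of the 2 host transcripts past 1.5-fold (Snhg5, Snhg11), of the 2 hosts with several measured snoRNAs (Snhg3, Snhg12) and of Gas5. Each runs 5′ to 3′ on the gene's own strand over 80 bases, 40 before and 40 from the annotated start, and capitals mark a run of at least 5 C or T that begins with C within 5 bases of that start.
Snhg5: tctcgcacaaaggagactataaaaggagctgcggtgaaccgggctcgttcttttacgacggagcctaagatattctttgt
Snhg11: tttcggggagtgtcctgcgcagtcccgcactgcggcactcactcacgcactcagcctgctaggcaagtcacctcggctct
Snhg3: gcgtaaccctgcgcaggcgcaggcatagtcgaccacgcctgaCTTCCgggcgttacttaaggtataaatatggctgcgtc
Snhg12: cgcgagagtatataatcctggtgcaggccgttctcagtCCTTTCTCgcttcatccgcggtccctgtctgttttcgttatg
Gas5: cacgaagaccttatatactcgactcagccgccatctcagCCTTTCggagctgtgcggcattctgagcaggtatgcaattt
The windows lie at chr9:88522858-88522937 (minus strand) for Snhg5, chr2:158375673-158375752 (plus) for Snhg11, chr4:132353647-132353726 (minus) for Snhg3, chr4:132308638-132308717 (plus) for Snhg12 and chr1:161035126-161035205 (plus) for the alternative start of Gas5. Such a run was found at a start of 5 of the 8 members (Gas5, Snhg3, Snhg7, Snhg8 and Snhg12). Counted by window it was in 5 of their 9, against 18.3% of the 32851 windows in the table. Gas5 had the run only at the alternative start printed here, and its other start had none. The longest, 8 bases, was that of Snhg12 (CCTTTCTC). In the whole windows of 300 bases (250 before and 50 from the start, both strands searched) the letters TATAAA were present for 5 of 8 members and in 13.6% of all windows, CCAAT for 3 and in 37.4%, CCGGAA for 2 and in 14.9%, and CACGTG for 0 and in 7.15%. Neither window of Gas5 held any of these motifs. The members' windows held between 16 and 36 CpG dinucleotides, with a median of 7 over all windows. Matching letters describe the sequence and are not a measured binding site.

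The arrays held 41345 probe sets each, and 13284 genes lay above a detection level of 4.84 on at least 1 array, the level under which 95% of values fell for 1394 olfactory or vomeronasal receptors. Of 12 markers of marrow stroma 9 were detected, with 3 of them at least 1.5-fold higher after anti-CD84 (Cxcl12, Pdgfra and Dcn) and 0 lower, where 10.7% of all detected genes were 1.5-fold higher and 6.4% lower. Thy1 was at 4.39 after anti-CD84 and 4.95 after IgG1 (-0.56), above the detection level on the IgG1 array only. It was 1.5-fold lower after centring but not after loess correction or quantile normalization. With values floored at the detection level it was 1.08-fold lower. Dcn and Thy1 were named after their values were seen. Of 10 measured haematopoietic markers 3 were detected, and the 10 ranged from 3.81 to 5.02, around or below the detection level. Csf1r was at 4.86 after anti-CD84 and 4.14 after IgG1, and Tyrobp at 4.30 and 4.85. Ptprc (CD45), a marker of white blood cells, lay below the detection level at 3.90 and 3.86. Cd84 itself, at 4.15 after anti-CD84 and 3.82 after IgG1, was also below it on both.

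All 8 measured host transcripts lay above the detection level on both arrays, and their differences were small and of both signs. Of the 8, 1 was at least 1.5-fold higher after anti-CD84 (Snhg11), 1 at least 1.5-fold lower (Snhg5) and 6 lay within 1.5-fold, and 0 differed by 2-fold. Among all 13284 detected genes 10.7% were 1.5-fold higher and 6.4% lower, and 1.98% were 2-fold higher and 1.43% lower, so single genes past this size are common in this comparison. The median difference of the 8, anti-CD84 minus IgG1 on the log2 scale, was -0.12, beside 0.09 for all detected genes. Of the 8, 5 had a difference below 0, and so had 40.9% of all detected genes. The signs of the 8 were the same after centring, loess correction and quantile normalization.

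**Figure D1:**
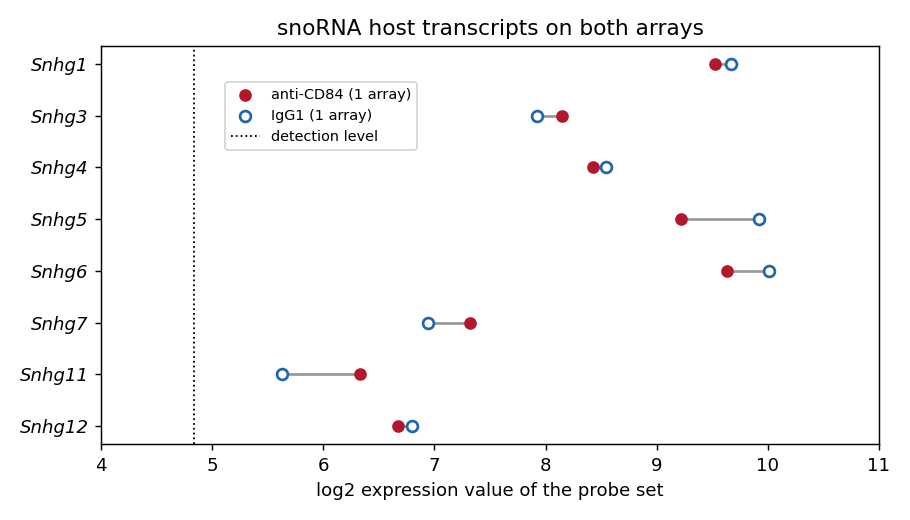
Log2 expression values of the 8 measured snoRNA host transcripts on the anti-CD84 array (filled red) and the IgG1 array (open blue), 1 array per group and so without error bars; the dotted line is the detection level of 4.84. Snhg5 and Snhg11 have the widest gaps, in opposite directions, and levels of different genes are not comparable because each probe set has its own probes.

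Snhg5, the host of the snoRNAs of the Snord50 family, had the lowest difference of the 8. Its log2 value was 9.22 after anti-CD84 and 9.92 after IgG1. The IgG1 array was thus the brighter by 1.62-fold, a difference of -0.70. Of the 13284 detected genes 571 had a lower difference. Spread depends on level: among the 1936 detected genes with a mean level from 9 to under 11, as that of Snhg5, the differences had a standard deviation of 0.31 and 1.34% were 1.5-fold lower. The array has no single-symbol probe set under the name of either snoRNA of Snhg5.

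Snhg6 and Snhg1, which share this range of levels, also lay lower after anti-CD84, by less than 1.5-fold. Snhg6, the host of Snord87, was at 9.63 after anti-CD84 and 10.01 after IgG1. Its difference of -0.37 (1.29-fold lower) is little more than the standard deviation of genes of its level. Snhg1, the host of Snord22 and a cluster of further C/D snoRNAs, was at 9.52 and 9.66. The difference, -0.14, lay well inside that spread.

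Snhg4 and Snhg12 were near-equal on the arrays. Snhg4, the host of Snora74a, was at 8.43 after anti-CD84 and 8.54 after IgG1, a difference of -0.11. Snhg12, which carries 3 H/ACA snoRNAs and 1 C/D snoRNA, was at 6.67 and 6.80, a difference of -0.13. Both values lie below the IgG1 value and within the spread of genes of their level, which was 0.37 from 7 to under 9 and 0.48 from 5 to under 7.

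Snhg3, Snhg7 and Snhg11 were the 3 hosts with a higher value after anti-CD84. Snhg3, the host of Snora73a and Snora73b, was at 8.15 after anti-CD84 and 7.93 after IgG1, 1.16-fold higher (0.22). Snhg7, the host of Snora17 and Snora43, was at 7.32 and 6.94, 1.30-fold higher (0.38). Snhg11, the host listed for Snora60 and Snora71, was at 6.33 and 5.63, a 1.63-fold higher value (0.71). Genes of its level vary more, and 13.3% of the 5057 detected genes with a mean level from 5 to under 7 were 1.5-fold higher. Snhg11 is also the 1 member with a further single-symbol probe set. That probe set was at 4.78 and 4.92, close to the detection level, and its difference had the opposite sign (-0.14). With the mean of both probe sets the difference of Snhg11 was 0.29, and 0 members were then 1.5-fold higher.

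**Figure D2:**
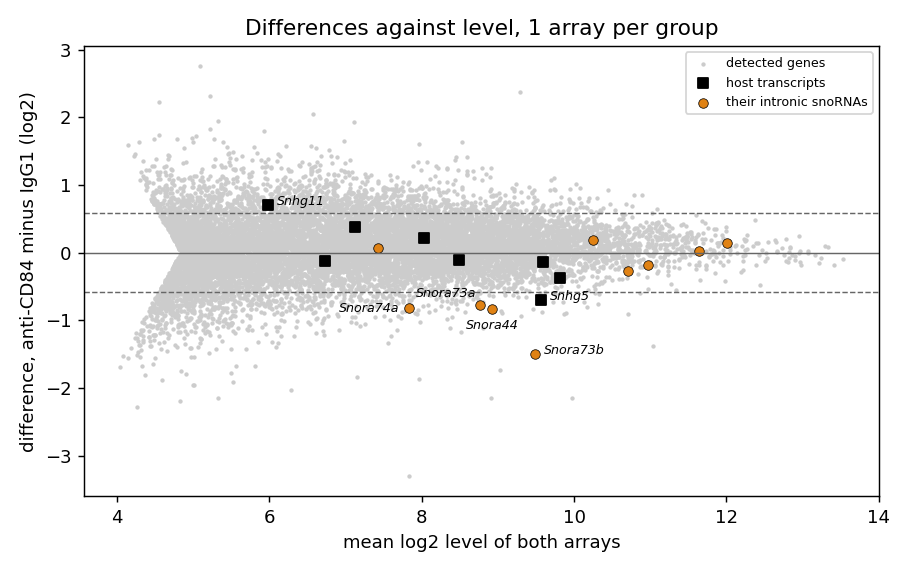
Difference between the arrays (anti-CD84 minus IgG1, log2) against the mean log2 level for all 13284 detected genes (grey), the 8 host transcripts (black squares) and the 10 measured snoRNAs of the hosts' introns (orange); dashed lines mark 1.5-fold. Snhg5 and 4 H/ACA snoRNAs lie below the lower line and Snhg11 above the upper one, and the grey cloud narrows with level.

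Among the snoRNAs in the introns of these hosts, several were lower after anti-CD84 by more than their hosts. From general knowledge of these genes 33 snoRNAs were listed for the 10 hosts, and RefSeq places 31 snoRNA genes inside the hosts' spans, many of them without an established symbol. Of the 33, 10 had a single-symbol probe set, and RefSeq places each of the 10 inside its host. All 10 were detected on both arrays, and the snoRNAs of Snhg5, Snhg7, Snhg8 and Snhg11 are not among them. Of the 10, 4 were at least 1.5-fold lower after anti-CD84, 0 were higher and 6 lay within 1.5-fold, beside 6.4% lower and 10.7% higher among all detected genes, and the median was -0.23. Probes for a snoRNA also match the unspliced host RNA, so the mature snoRNA and its precursor were not told apart.

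The 4 lower snoRNAs were all of the H/ACA class. Snora73b, which with its close copy Snora73a is needed for early cutting of the ribosomal precursor, was at 8.74 after anti-CD84 and 10.24 after IgG1. It was 2.83-fold lower (-1.50), and 30 of the 13284 detected genes had a lower difference. Snora73a was at 8.38 and 9.16, 1.72-fold lower (-0.78). The copies are so alike that their probes may share signal, and they are not independent measurements. Snora44, from Snhg12, was at 8.51 and 9.35, 1.78-fold lower (-0.83). Snora74a, from Snhg4, was at 7.42 and 8.24, 1.77-fold lower (-0.82). Among the 4542 detected genes with a mean level from 7 to under 9, the range of Snora73a, Snora44 and Snora74a, 2.93% were 1.5-fold lower.

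The other 2 H/ACA snoRNAs, both from Snhg12, did not share this difference. Snora16a was at 10.34 after anti-CD84 and 10.15 after IgG1 (0.19). Snora61 was at 7.46 and 7.40 (0.06), a sign that turned with centring, loess correction and quantile normalization. So within the introns of the same host, Snhg12, 1 of 3 H/ACA snoRNAs was 1.5-fold lower.

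The 4 measured C/D snoRNAs lay within 1.5-fold. Snord22, which is needed to process the small-subunit ribosomal RNA, was at 12.08 after anti-CD84 and 11.94 after IgG1 (0.14). Snord87, from Snhg6, was at 11.65 and 11.62, and its difference of 0.03 turned sign with centring, loess correction and quantile normalization. Snord99, from Snhg12, was at 10.88 and 11.07 (-0.18). Snord47, the measured snoRNA of Gas5, was at 10.57 and 10.84 (-0.27). Their median of -0.08 compares with -0.80 for the 6 H/ACA snoRNAs, a contrast of the classes that was noticed after the values were seen and rests on few genes. The classes also differ in level, from 10.57 to 12.08 for these C/D snoRNAs and from 7.40 to 10.34 for the H/ACA ones. Brighter genes varied less between the arrays, so class and level cannot be told apart here.

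**Figure D3:**
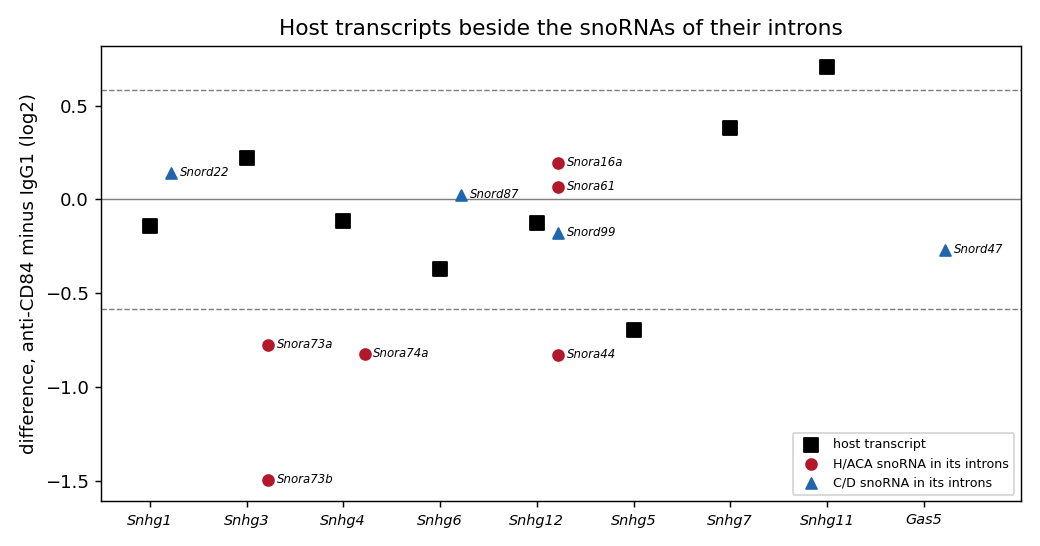
Difference between the arrays (anti-CD84 minus IgG1, log2) of each measured host transcript (black square) beside the measured snoRNAs of its introns, H/ACA as red circles and C/D as blue triangles; dashed lines mark 1.5-fold, and the Gas5 transcript has no single-symbol probe set. Snora73b and Snora73a lie far below their host Snhg3, while the C/D snoRNAs lie within 0.40 of theirs.

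Set beside their hosts, the snoRNAs had differences of other sizes and in part of other signs. In the 9 pairs with both measured, the snoRNA's difference minus the host's ran from -1.72 to 0.40, with a median of -0.06. In 4 pairs the snoRNA lay below its host by at least 0.58, the log2 of 1.5-fold. The widest gap was that of Snora73b and Snhg3, whose differences were -1.50 and 0.22. Snora73a was 1.00 below Snhg3 on the same scale, and Snora74a and Snora44 were each 0.71 below their hosts. Snhg6 went the other way, with Snord87 0.40 above its host. These pairs share the same 2 arrays, and the 4 snoRNAs of Snhg12 share 1 host value.

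A lower snoRNA than host was also seen outside these genes. Pairs there rest on position in RefSeq alone, and without strand a snoRNA may lie opposite to the gene it is paired with. In 47 pairs of a detected snoRNA and another detected host gene, 30 snoRNAs had a difference below their host's, 8 of them by at least 1.5-fold, and the median gap was -0.18. The widest was Snora75 in Ncl, the nucleolin gene, where the snoRNA's difference was -2.15 and the host's -0.11. The next widest was a C/D snoRNA, Snord83b in the ribosomal protein gene Rpl3, at -1.11 against 0.58, followed by Snora62 in Rpsa, at -1.38 against 0.14. In 1 pair the snoRNA lay at least 1.5-fold above its host. Of the 8 wide gaps downward 5 were of H/ACA and 3 of C/D snoRNAs, among 17 and 30 pairs. Of the 20 detected Snora genes outside the members' introns 5 were 1.5-fold lower and 0 higher (Snora20, Snora31, Snora62, Snora69 and Snora75, named after their values were seen), and of 41 detected Snord genes there 6 were lower (Snord118, Snord83b, Snord13, Snord92, Snord88a and Snord1b) and 2 higher (Snord61 and Snord88c, all named likewise). Snord118, at 8.16 after anti-CD84 and 9.90 after IgG1, was 3.33-fold lower, more than Snora73b. Snord88a, at 4.24 after anti-CD84 and 4.84 after IgG1, barely cleared the detection level, and on the IgG1 array only. With values floored at that level its fold was 1.00. Snord88a is also 1 of the 3 C/D snoRNAs with a wide gap downward. The medians of these Snora and Snord genes were -0.21 and -0.12. Among all detected genes 6.4% were 1.5-fold lower and 10.7% higher. Whether the members' snoRNAs differ from these was not tested.

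**Figure D4:**
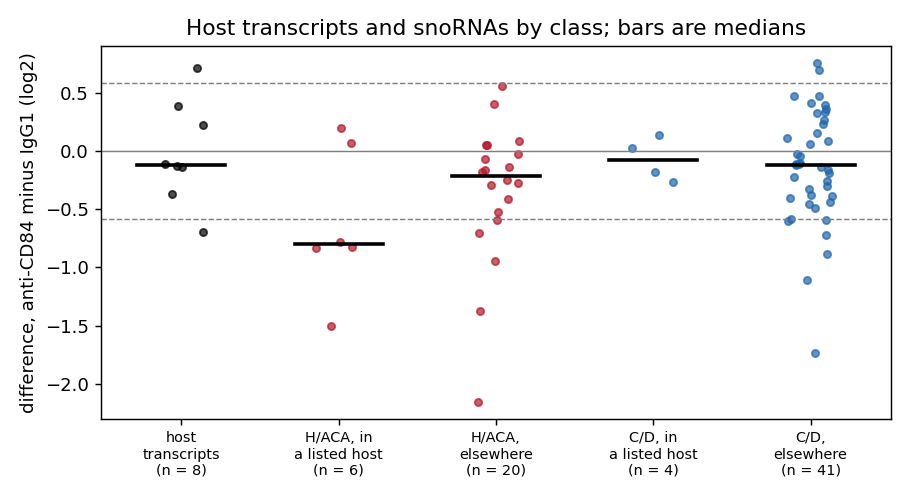
Difference between the arrays (anti-CD84 minus IgG1, log2) of the 8 host transcripts and of the detected snoRNAs by class and place, 1 point per gene, with a bar at the median and dashed lines at 1.5-fold. The median of the 6 H/ACA snoRNAs of the listed hosts is -0.80, beside -0.21 for the 20 elsewhere, and both classes of snoRNA reach further down than up.

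Further non-coding snoRNA hosts and related RNAs on a list of 12 gave a like picture of small differences. Of 9 detected genes 0 were 1.5-fold higher and 0 lower, beside 10.7% and 6.4% of all detected genes, and the median was 0.00. Snhg17 had the largest difference, at 9.51 after anti-CD84 and 10.03 after IgG1 (-0.52), and was 1.5-fold lower after centring, loess correction or quantile normalization. Its 2 dimmer probe sets disagreed: 1 was at 7.29 and 7.04 (0.25), and the other at 5.86 and 7.83, which is 3.93-fold lower. Epb41l4aos was at 7.75 and 8.22 (-0.47) and Dancr at 6.26 and 5.90 (0.36).

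Protein-coding genes whose span holds a snoRNA had a median difference near that of all detected genes. RefSeq's table gives no strand, so a snoRNA inside a gene's span may lie on the opposite strand. Of 256 such genes detected 22 (8.59%) were 1.5-fold higher and 9 (3.52%) lower, beside 10.7% and 6.4% of all detected genes. The median was 0.09, the same as for all detected genes. Of the 256, 245 lay above the detection level on both arrays, and of these 20 were higher and 8 lower. The 3 highest among those above the detection level on both arrays were Rab2b (1.22), Rabif (0.97) and Kif13b (0.95), and the 3 lowest were Dpep2 (-1.23), Mrps9 (-0.99) and Idi2 (-0.92). Each of the 6 holds 1 snoRNA gene, without an established symbol. Of the 49 detected genes that hold a snoRNA with a Snora or Snord symbol 0 were higher and 2 lower, both ribosomal protein genes, Rpl5 (-0.69) and Rps13 (-0.68), and the median was 0.02. Among 15 detected non-coding hosts 1 was higher, 2700038G22Rik (0.63, and 0.54 after centring), which holds Snord93, and 0 were lower. Rpl5, Rps13 and 2700038G22Rik were named after their values were seen.

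The proteins that build snoRNA particles had differences of both signs. Of 19 measured genes for core proteins and assembly factors, all of them detected, 1 was 1.5-fold higher and 1 lower, with a median of 0.01. Among all detected genes 10.7% were 1.5-fold higher and 6.4% lower. Tgs1, which trimethylates the caps of small RNAs, was at 8.31 after anti-CD84 and 7.66 after IgG1, 1.57-fold higher. Gar1, a core protein of H/ACA particles, was at 6.80 and 7.43, 1.55-fold lower. Znhit3, an assembly factor of C/D particles, was at 6.44 and 6.99 (-0.55). Under centring, loess correction and quantile normalization the counts were 0 higher and 2 lower, since Tgs1 came within 1.5-fold (0.56 after centring) and Znhit3 passed it (-0.63).

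Factors of nonsense-mediated decay, the pathway that removes many spliced host RNAs, were listed next. Of 10 measured genes, all detected, 1 was 1.5-fold higher and 0 lower, beside 10.7% and 6.4% of all detected genes. The median was 0.18 beside 0.09 for all detected genes. Smg6, the endonuclease of the pathway, was at 8.44 after anti-CD84 and 7.83 after IgG1, 1.53-fold higher. After centring its difference was 0.53, within 1.5-fold, so 0 of the 10 were then past it, as with loess and quantile normalization. Upf1, its central helicase, was at 8.29 and 7.91 (0.39), and Eif4a3, of the exon junction complex, at 5.91 and 5.57 (0.34).

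Of 14 detected translation and growth genes with a TOP start outside the ribosomal proteins, 0 were 1.5-fold higher and 0 lower, with a median of 0.01, whose sign turned with the scaling. Among the ribosomal protein genes, taken by symbol after the values were seen, 1 of 60 detected was 1.5-fold higher and 7 were lower, 3 of them by 2-fold, with a median of -0.03. Of these 60, 58 lay above the detection level on both arrays. Among all detected genes 10.7% were 1.5-fold higher, 6.4% were 1.5-fold lower and 1.43% were 2-fold lower. The lowest of the 14 were Npm1, the nucleolar chaperone nucleophosmin, at 11.45 after anti-CD84 and 11.85 after IgG1 (-0.40), and Tpt1 at 9.34 and 9.60 (-0.25). Among 5 detected regulators of TOP mRNAs Mtor was 1.67-fold higher (8.10 against 7.36), while Larp1, which binds the TOP start, was at 10.58 and 10.69 (-0.11) and Rptor at 8.87 and 8.74 (0.12).

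The spliced Gas5 RNA is known as a decoy of the glucocorticoid receptor, and this receptor and its targets were listed for that reason. Of 12 detected genes 2 were 1.5-fold higher and 0 lower (median 0.19), Dusp1, a MAP kinase phosphatase (9.52 against 8.83), and Errfi1, an inhibitor of the EGF receptor (9.24 against 8.56). Of the 12, 11 lay above the detection level on both arrays, with a median of 0.16. The receptor gene Nr3c1 was at 9.04 after anti-CD84 and 8.79 after IgG1 (0.25). A further list held 8 growth arrest-specific genes and relatives, with Gas2l3 named only for its likeness to Gas2. Of these 8, 2 were higher and 0 lower (median 0.17), Gas2 (7.83 against 7.04) and Gas2l3 (9.35 against 8.72), both of which bind the cytoskeleton. These counts stand beside 10.7% higher and 6.4% lower among all detected genes. Gas2l3 fell within 1.5-fold under centring, loess correction and quantile normalization, and the growth arrest list then had 1 higher gene, Gas2, and 1 or 2 lower (Gas7, with Gas8 after loess and quantile normalization). Errfi1 stayed past 1.5-fold after centring (0.59) but not after loess (0.58).

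The genes next to the hosts were looked up because several hosts start close to a protein-coding gene. Slc3a2, the amino acid transporter chain beside Snhg1, had a difference of 0.23 against -0.14 for the host. Matr3, beside Snhg4, had -0.01, Trnau1ap, beside Snhg12, -0.06, and Phactr4, beside Snhg3, -0.28. Zbtb37, beside Gas5, was at 7.42 after anti-CD84 and 7.02 after IgG1 (0.40). Prss12, beside Snhg8, was at 5.86 and 5.15, 1.64-fold higher (0.71). Dipk1b, beside Snhg7, was the largest of the 8 measured neighbours, at 6.66 after anti-CD84 and 5.65 after IgG1 (2.01-fold higher). Mcmdc2, beside Snhg6, was not detected. Rcc1, further along the chromosome from Snhg3, was at 7.50 and 7.53. Mir1949, a microRNA precursor inside the span of Snhg4, was at 8.05 and 8.50 (-0.45).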

How the data were processed

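RNA of 1 anti-CD84 and 1 IgG1 culture was measured on 1 array each. The authors deposited log2 values, 1 for each probe set on each array. RMA and Partek were used, per the submitters' processing notes, with versions and settings not given in the sources used. RMA can compress true differences of dim probe sets. The spread between these 2 arrays was still widest for dim genes. Its standard deviation was 0.62 below a mean level of 5 and 0.22 from 11 up. The log2 scale was inferred from the values (1.82 to 13.8, column medians 4.87 and 4.88), and their scale and centring are otherwise taken as deposited.

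Of 41345 probe sets 23521 have 1 gene symbol in GEO's platform annotation, 1814 several and 16010 none. Only the first were used, with the brightest by mean per gene. Of these 23521 probe sets 23325 have a gene ID that is in RefSeq's table (GRCm38.p6). Genes above the detection level on at least 1 array were detected. Sizes of 1.5-fold and 2-fold were counted, with no test. RefSeq spans placed snoRNAs inside hosts. No strand was available there, so the members' pairs of host and snoRNA followed a list from general knowledge. Pairs of other hosts and snoRNAs rest on position alone.

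The members and lists were chosen with earlier results of these data known. Named were all members, all measured snoRNAs of their introns, the 2 or 3 genes with the largest absolute difference per list, 5 chosen genes, and the 3 highest and 3 lowest other hosts. Further snoRNAs and hosts outside the members, the members' neighbours, and marker or list genes outside this rule were added after their values were seen, mostly because they passed 1.5-fold or had the widest gap. Alternatives were centring, loess (limma 3.58.1, span 0.4, R 4.3.3), quantile normalization, no or a stricter level (6.88), mean probe sets and flooring at the detection level. Counting was tested on simulated data. Python 3.11.15, numpy 2.4.6, pandas 2.3.3 and matplotlib 3.10.9 were used.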

Additional observations from a re-analysis of the deposited data

How the results depend on the processing

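With 1 array per group no replicate could be left out. No paired analysis was possible because each group holds 1 array. Of 348 values under the alternatives, 327 stayed within the spread of all detected genes (0.44) or within 1.5 times the count, 21 did not, and 0 differences past 1.5-fold turned sign. These counts do not measure robustness. The members and their measured snoRNAs lay above the detection level on both arrays, so filters and flooring could not change their differences. Mean probe sets changed only Snhg11 among them. That spread also exceeds most member differences, so Snhg11 going from 0.71 to 0.29 counted as within it. The median of the members ran from -0.21 to -0.12. Members 1.5-fold higher numbered 0 instead of 1 under the stricter level and with the mean of all probe sets. For protein-coding hosts the lower count was 4 under the stricter level, and with named snoRNAs only, an alternative chosen after seeing the data, 2 lower and 0 higher. For non-coding hosts the counts were 0 higher and 2 lower under centring, loess and quantile normalization, 2 and 2 with no level filter, and 1 lower with mean probe sets. The lists around the hosts had 4 higher and 4 lower genes after centring, 3 and 5 after loess or quantile normalization, and 2 lower with mean probe sets. Requiring both arrays above the detection level, also chosen after seeing the data, left the members' counts as they were. The number of arrays limits the precision of every value.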

Other observations

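Beyond the probe sets used above, 5 probe sets carry the symbol of a listed host together with that of another RNA, so their signal cannot be assigned to 1 transcript. Their differences, anti-CD84 minus IgG1 on the log2 scale, ran from -0.90 to 0.09.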
